A study of Mus musculus with 6 samples.

Results

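The chemokines Cxcl9, Cxcl10, Cxcl16, Cxcl12, Cxcl14, Ccl17 and Ccl22 and the receptors Cxcr3, Cxcr6 and Ccr4 were followed through 6 single-cell libraries made from the mouse 4T1 carcinoma model. These 10 genes were taken by name from the 28649 gene names in the count matrices. Of the libraries, 3 are labelled as 4T1 cells transduced with a lentiviral short hairpin RNA against Pgk1 (shPgk1), and 3 are labelled as 4T1 cells transduced with a non-targeting hairpin (shNC). From 48 hours after transduction both arms were kept in puromycin (2 µg/mL) for 7 days, and no strain or age is stated. 4T1 is a triple-negative mammary carcinoma line, and the libraries also held barcodes of macrophages, T cells, fibroblasts and endothelium, whose origin the labels do not describe.

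Chemokines are small secreted proteins that draw cells bearing the matching receptor. Cxcl9 and Cxcl10 are induced by interferon-gamma and bind Cxcr3, a receptor of activated T cells and natural killer (NK) cells. Cxcl16 is held on the membrane of myeloid cells until it is shed, and its receptor Cxcr6 is carried by resident effector T cells. Cxcl12 is made by stromal cells and binds Cxcr4, while Cxcl14 is a stromal and epithelial chemokine without a settled receptor. Ccl17 and Ccl22 are made by dendritic cells and bind Ccr4, a receptor of regulatory and helper T cells.

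Both pairs of ligands that share a receptor lie close together in the genome. On the GRCm38 mouse build, with the GENCODE M21 annotation, Cxcl9 lies at chr5:92321347-92328079 and Cxcl10 at chr5:92346638-92348889, both on the minus strand and 18558 bases apart. Ccl22 lies at chr8:94745590-94751699 and Ccl17 at chr8:94810453-94812036, both on the plus strand and 58753 bases apart. The stretches before the gene starts of these 4 ligands are shown because the members of each pair share a receptor and were highest in the same gates; for Ccl22 that gate was fixed by the choice of barcodes, since Ccl22 is 1 of its 2 marker genes. They come from the RefSeq promoter table of GRCm38.p6, which matched 9 of the 10 genes, and read 5′ to 3′ on each gene's own strand, without bases that GENCODE places inside the gene. The Cxcl9 stretch is chr5:92328080-92328329, that of Cxcl10 is chr5:92348890-92349139, that of Ccl17 is chr8:94810203-94810452 and that of Ccl22 is chr8:94745434-94745589.
Cxcl9: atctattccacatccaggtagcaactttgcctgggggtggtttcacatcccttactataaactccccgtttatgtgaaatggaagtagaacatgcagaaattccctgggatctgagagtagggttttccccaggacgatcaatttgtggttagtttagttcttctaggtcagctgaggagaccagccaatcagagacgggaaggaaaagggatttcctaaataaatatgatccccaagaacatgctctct
Cxcl10: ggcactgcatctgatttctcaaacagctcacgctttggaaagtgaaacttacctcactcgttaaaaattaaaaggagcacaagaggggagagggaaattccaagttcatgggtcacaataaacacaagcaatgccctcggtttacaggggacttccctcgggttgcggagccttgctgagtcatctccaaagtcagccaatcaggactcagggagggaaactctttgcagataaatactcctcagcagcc
Ccl17: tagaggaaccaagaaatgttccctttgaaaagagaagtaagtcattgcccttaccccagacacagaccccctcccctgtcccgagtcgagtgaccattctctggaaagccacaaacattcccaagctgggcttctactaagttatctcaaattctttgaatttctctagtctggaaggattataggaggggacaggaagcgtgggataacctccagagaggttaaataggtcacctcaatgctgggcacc
Ccl22: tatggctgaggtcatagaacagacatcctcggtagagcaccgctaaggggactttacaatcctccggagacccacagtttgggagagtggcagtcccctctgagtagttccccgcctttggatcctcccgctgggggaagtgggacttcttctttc
G and C made up 44.4% of the bases before Cxcl9, 48.0% before Cxcl10, 47.6% before Ccl17 and 55.8% before Ccl22.

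The libraries held between 78778073 and 128933960 unique molecular identifier (UMI) counts, and 41458 of 42902 barcodes were kept. A barcode was placed in a lineage when its UMIs of Epcam and Krt8 (tumour), Csf1r and Cd68 (macrophage), Cd3e (T cell), Ccr7 and Ccl22 (mature dendritic), Col1a2 (fibroblast) or Cdh5 (endothelial) exceeded what free RNA could give, and it passed no other gate. This placed 13657 barcodes in the tumour gate, 8481 in the macrophage gate, 1439 in the T cell gate, 215 in the mature dendritic gate, 1844 in the fibroblast gate and 312 in the endothelial gate. All 6 check markers of the macrophage, T cell, mature dendritic, fibroblast and endothelial lists were highest in the gate they belong to, as were 5 of 6 of the tumour list. Tumour barcodes made up 39.6% ± 2.81 of kept barcodes in shPgk1 libraries and 26.0% ± 2.92 in shNC libraries (SD, n = 3 each), and fibroblast barcodes 3.47% ± 0.926 in shPgk1 libraries and 5.43% ± 0.928 in shNC libraries. Both shares had p = 0.1 in a 2-sided exact permutation test, which 3 against 3 libraries cannot undercut, and an adjusted p of 0.3 over the 6 gates. Pgk1 itself stood at 324, 324 and 349 CPM (counts scaled to a common total) in the shPgk1 libraries and at 351, 341 and 313 CPM in the shNC libraries. The groups overlapped, so the arms are named here by their labels and a lower Pgk1 was not seen. Whether each library is its own animal or culture is not stated, so the spread behind every p-value, which is that among these 6 libraries, may be technical.

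**Figure D1:**
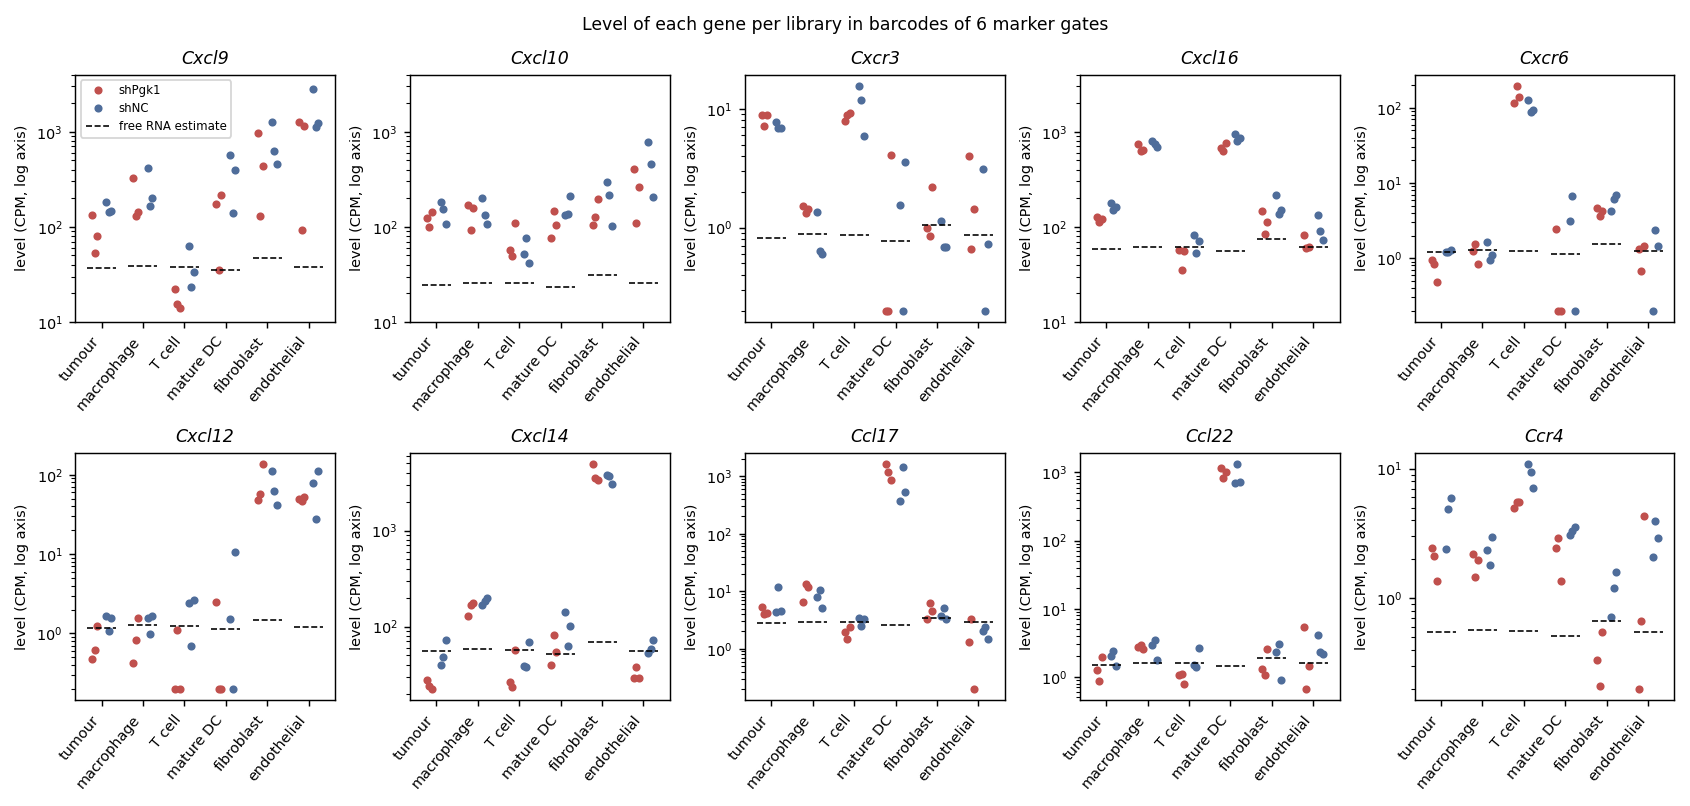
Level of each gene in CPM (log axis) in the barcodes of 6 marker gates, with 1 point per library, shPgk1 left of shNC, and a dashed line at the mean level that free RNA would give. Points below 0.2 CPM are drawn at 0.2. Cxcl9 and Cxcl10 are highest in the endothelial gate, Cxcl16 in the mature dendritic and macrophage gates, Cxcl14 in the fibroblast gate, Ccl17 and Ccl22 in the mature dendritic gate and Cxcr6 in the T cell gate.

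The interferon-induced ligands were highest in stromal cells. Cxcl9 averaged 1282 ± 873 CPM in endothelial barcodes and 650 ± 411 CPM in fibroblast barcodes (SD over 6 libraries). It stood at 255 ± 195 CPM in mature dendritic, 231 ± 116 CPM in macrophage and 124 ± 47.9 CPM in tumour barcodes. T cell barcodes averaged 28.6 CPM, which is 0.757 of the level estimated for free RNA, so no Cxcl9 above that background was seen there. Cxcl10 had the same leading gates, with 369 ± 236 CPM in endothelial and 174 ± 78.3 CPM in fibroblast barcodes. Macrophage, tumour and mature dendritic barcodes lay close together at 143, 135 and 135 CPM of Cxcl10, and T cell barcodes at 64.4 CPM. In both orders every pair of neighbouring gates overlapped across libraries. Because tumour and macrophage barcodes were many, they held most of the molecules: 24.7% of all Cxcl9 counts lay in the tumour gate and 33.4% in the macrophage gate, against 6.21% in the endothelial gate. For Cxcl10 these shares were 42.2% in the tumour gate, 28.7% in the macrophage gate and 2.60% in the endothelial gate. Over the 36 sums of 6 gates and 6 libraries, the genes whose levels followed Cxcl9 most closely were Tmem140 (Pearson r = 0.93), Gng12 (0.88) and App (0.84), and those of Cxcl10 were Tmem140 (0.81), Gbp2b (0.81), an interferon-induced guanylate-binding protein, and Cxcl9 itself (0.79). These sums share libraries and depth, so such correlations are descriptions.

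Within the gates, Cxcl9 also differed between subsets, which were set by the same rule as the gates from the summed UMIs of 1 or 2 marker genes. Levels of subsets are pooled over the 6 libraries. The 104 barcodes of the fibroblast gate that passed for Rgs5 and Higd1b, markers of pericytes, held 1277 CPM of Cxcl9 and 386 CPM of Cxcl10. That Cxcl9 level rests on library shNC 1, which gave 1244 of the 2480 counts, and was 753 CPM without it. By library it was 1762, 106 and 1156 CPM in the shPgk1 libraries and 4137, 296 and 545 CPM in the shNC libraries. Fibroblasts that passed for the contractile genes Acta2 and Tagln held 735 CPM of Cxcl9, and the other fibroblasts 239 CPM. In libraries shPgk1 2 and shNC 2 the contractile fibroblasts, at 164 and 784 CPM, lay above the pericytes. Macrophage-gate barcodes that passed for the monocyte genes Ly6c2 and Ms4a4c held 389 CPM of Cxcl9 where they did not pass for C1qa and C1qb, and 402 CPM where they did. Those that passed for C1qa and C1qb alone held 215 CPM, and those that passed for neither 127 CPM. The median depth was 7414 UMIs in the other fibroblasts, 21819 in contractile and 16440 in pericyte barcodes, and its part in these levels was not tested.

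Cxcl9 in endothelial barcodes was 1258, 92.6 and 1161 CPM in the shPgk1 libraries, against 2816, 1128 and 1235 CPM in the shNC libraries. The groups overlapped: shPgk1 replicate 2 was far below the rest and shNC replicate 1 far above. In fibroblast barcodes the Cxcl9 level was 969, 130 and 441 CPM in the shPgk1 libraries and 1274, 635 and 453 CPM in the shNC libraries. The same libraries marked the ends, and the groups again overlapped. In macrophage barcodes Cxcl9 was 328, 129 and 142 CPM in the shPgk1 libraries and 417, 167 and 200 CPM in the shNC libraries, also with overlap. In tumour barcodes it was 134, 53.5 and 80.4 CPM in the shPgk1 libraries and 183, 144 and 148 CPM in the shNC libraries. Every shPgk1 library lay below every shNC library there, as for 26.3% of genes. Library shNC 1 was highest for Cxcl9 in 6 of the 6 gates, and library shPgk1 2 was lowest in 5 of 6.

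The log2 fold of Cxcl9 was negative in all 6 gates and over all kept barcodes, and passed the threshold in none of them in the edgeR fit on the group alone. Over all kept barcodes, where makeup of the libraries and RNA per cell cannot be told apart, it was -0.84 ± 0.42 (edgeR adjusted p = 0.193). Without library shPgk1 1 it was -1.33 and called (edgeR adjusted p = 0.0450). It was -0.72 ± 0.32 (SE) in tumour barcodes (edgeR quasi-likelihood test, Benjamini-Hochberg adjusted p = 0.178; 0.0159 without library shPgk1 1) and -0.45 ± 0.55 in macrophage barcodes (adjusted p = 0.758). In endothelial barcodes the fold was -1.11 ± 1.08 (edgeR adjusted p = 0.959) and in fibroblast barcodes -0.65 ± 0.87 (edgeR adjusted p = 0.881). Without library shNC 1 the macrophage fold was 0.03 and thus of the other sign. In mature dendritic barcodes it was -1.37 ± 0.83 (edgeR adjusted p = 0.774). In T cell barcodes, where the level lay near the free RNA estimate, the fold was -1.20 ± 0.41 (edgeR adjusted p = 0.467). DESeq2 called that fold, at -1.21 with an adjusted p of 0.0335, as did edgeR without the filter on low counts (adjusted p = 0.00366) and with a replicate block (0.0195). The block also called Cxcl9 in mature dendritic barcodes (edgeR adjusted p = 0.0459). It assumes that same-numbered libraries form pairs, which the labels do not state, and their deviations correlated only between -0.14 and 0.11.

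**Figure D2:**
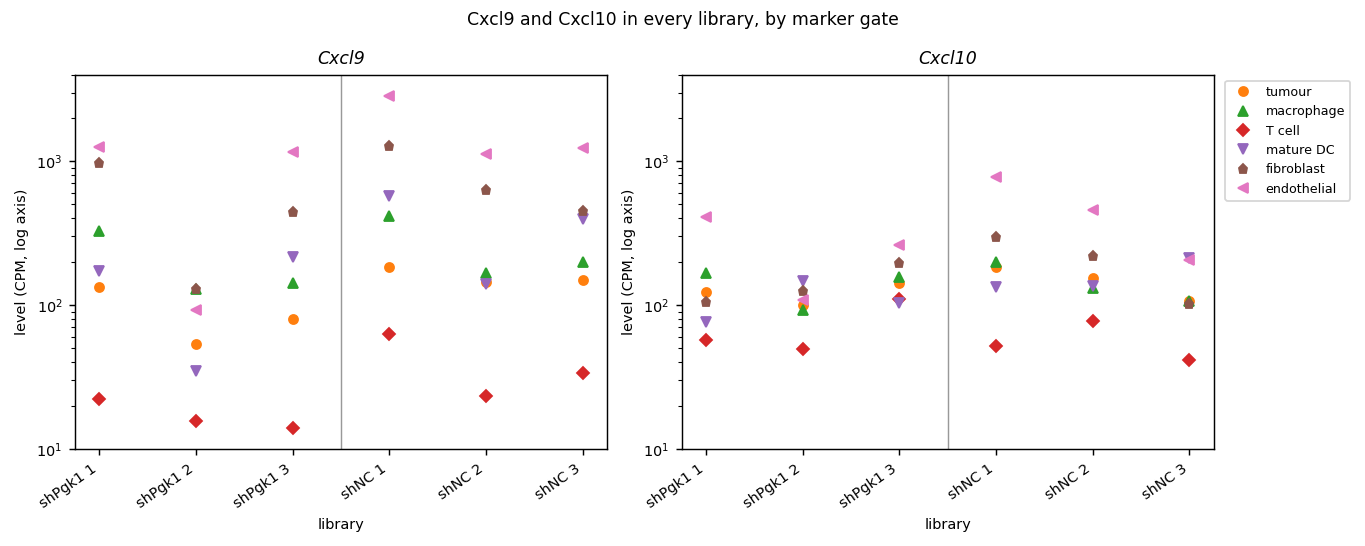
Cxcl9 and Cxcl10 levels in CPM (log axis) in every library, shPgk1 left of the vertical line and shNC right of it, with 1 symbol per marker gate. Library shNC 1 holds the highest Cxcl9 value of all 6 gates, and library shPgk1 2 the lowest of 5 gates.

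Cxcl10 differed less between the arms. In tumour barcodes it was 124, 99.8 and 142 CPM in the shPgk1 libraries and 184, 154 and 107 CPM in the shNC libraries. The ranges overlapped, and the log2 fold was -0.16 ± 0.21 (edgeR adjusted p = 0.618). The Cxcl10 fold ran between -0.95 ± 0.74 in endothelial and 0.32 ± 0.39 in T cell barcodes (edgeR adjusted p = 0.948 and 0.876), and the SE was larger than the fold in the tumour, macrophage and T cell gates. Ifng, which encodes interferon-gamma, was 132, 71.7 and 129 CPM in T cell barcodes of the shPgk1 libraries and 135, 108 and 114 CPM in those of the shNC libraries. The groups overlapped, and library shPgk1 2 was lowest, as for Cxcl9 in 5 of 6 gates. What part the Ifng level plays in the Cxcl9 differences was not tested.

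Cxcr3 was found in T cells and also in tumour-gate barcodes. T cell barcodes held 9.90 ± 3.39 CPM of Cxcr3 and tumour barcodes 7.72 ± 0.934 CPM (SD over 6 libraries), which are 11.3 and 9.45 times the free RNA estimate, and the 2 ranges overlapped. The other gates averaged between 1.09 and 1.66 CPM. The tumour gate held 72.8% of all 3039 Cxcr3 counts and the T cell gate 7.07%. Among T cells, Cxcr3 was 27.0 CPM in barcodes that passed for Foxp3, which marks regulatory T cells, 15.4 CPM in Cd4 barcodes without Foxp3, on 16 counts, and 5.58 CPM in Cd8 barcodes. Outside the gates, barcodes that passed for the type 1 dendritic genes Xcr1 and Clec9a held 12.2 CPM on 24 counts, none of them in libraries shPgk1 2 and shNC 3. The genes most like Cxcr3 over the 36 sums were Prkca (Pearson r = 0.91), a protein kinase C, Orc6 (0.89), a subunit of the origin recognition complex, and Fkbp3 (0.89).

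Over all kept barcodes Cxcr3 rose. It was 5.67, 5.11 and 6.17 CPM in the shPgk1 libraries, against 4.59, 3.60 and 3.49 CPM in the shNC libraries. All 3 shPgk1 values lay above all 3 shNC values, as for 16.0% of genes, and the log2 fold was 0.61 ± 0.14 (edgeR adjusted p = 0.0332). The tumour gate, which held most of these counts, had the larger share of barcodes in the shPgk1 libraries, and in a sum over all barcodes more cells of a type and more RNA per cell cannot be told apart. Within tumour barcodes Cxcr3 was 8.85, 7.11 and 8.86 CPM in the shPgk1 libraries and 7.74, 6.88 and 6.87 CPM in the shNC libraries, with overlap. The fold there was 0.32 ± 0.13 (edgeR adjusted p = 0.117). In T cell barcodes it was -0.39 ± 0.31 (edgeR adjusted p = 0.781), so the fitted sign differed between the gates without passing the threshold in either. The call over all barcodes was lost, with folds between 0.53 and 0.68, without library shNC 2 (edgeR adjusted p = 0.118), shNC 3 (0.0741), shPgk1 2 (0.0748) or shPgk1 3 (0.123).

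Cxcl16 was highest in the gates of antigen-presenting cells. It averaged 779 ± 117 CPM in mature dendritic and 707 ± 61.9 CPM in macrophage barcodes (SD over 6 libraries), whose ranges overlapped. Tumour barcodes held 142 ± 25.0 CPM and fibroblast barcodes 141 ± 43.7 CPM, at 2.40 and 1.90 times the free RNA estimate. The highest of these libraries, at 215 CPM, lay below the lowest macrophage library, at 630 CPM. Endothelial barcodes, at 83.2 CPM, and T cell barcodes, at 59.0 CPM, stood at 1.37 and 0.968 times the free RNA estimate. The macrophage gate held 59.3% of all Cxcl16 counts and the tumour gate 18.6%. In macrophage-gate barcodes the Cxcl16 level was 765 CPM where they passed for both gene pairs and 732 CPM for C1q alone. It was 621 CPM for monocyte genes alone and 568 CPM for neither, a narrower spread than for Cxcl9. Over the 36 sums Cxcl16 followed Ifi30 (Pearson r = 0.97), a lysosomal thiol reductase, H2-Aa (0.96), a class II major histocompatibility chain, and Ctsz (0.96), a cathepsin.

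Cxcl16 had a negative log2 fold in all 6 gates and was called in none of them in the edgeR fit on the group alone. In fibroblast barcodes, with a fold of -0.59 ± 0.22 (edgeR adjusted p = 0.450), it was called without the filter on low counts (adjusted p = 0.000215) and with a replicate block (0.0357). In T cell barcodes, near the free RNA estimate, the fold was -0.51 ± 0.20 (edgeR adjusted p = 0.477; 0.0151 without the filter). In tumour barcodes it was 128, 113 and 121 CPM in the shPgk1 libraries, against 177, 150 and 160 CPM in the shNC libraries. The groups did not overlap, as for 26.3% of genes in that direction, and the log2 fold was -0.32 ± 0.10 (edgeR adjusted p = 0.0732). In mature dendritic barcodes it was 680, 626 and 753 CPM in the shPgk1 libraries and 939, 806 and 869 CPM in the shNC libraries. Again the groups did not overlap, as for 5.52% of genes in that direction, with a fold of -0.40 ± 0.17 (edgeR adjusted p = 0.521). Macrophage barcodes, the main source, held 741, 630 and 650 CPM in the shPgk1 libraries and 792, 742 and 686 CPM in the shNC libraries. There the groups overlapped and the fold was -0.21 ± 0.09 (edgeR adjusted p = 0.318). Library shPgk1 2 was lowest and shNC 1 highest for Cxcl16 in 6 of 6 gates. Over all kept barcodes Cxcl16 was 340, 223 and 259 CPM in the shPgk1 libraries and 433, 391 and 350 CPM in the shNC libraries. There was no overlap, as for 25.5% of genes in that direction. The fold was -0.44 ± 0.16 (edgeR adjusted p = 0.0880). It was called without library shPgk1 1 (edgeR adjusted p = 0.0136) and with a replicate block (0.0427). Macrophage barcodes made up 19.0% of kept barcodes in shPgk1 and 22.1% in shNC libraries. In this sum makeup of the libraries and RNA per cell cannot be told apart.

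Within the larger expression cluster of tumour-gate barcodes, Cxcl16 fell in the shPgk1 libraries. The tumour gate fell mostly into 2 clusters, with 7096 barcodes in cluster 0 and 5333 in cluster 1. Cluster 0 made up 58.8% ± 2.00 of tumour barcodes in the shPgk1 libraries and 40.9% ± 5.12 in the shNC libraries (SD, n = 3 each). Within cluster 0 alone, a split chosen after the data were seen, the log2 fold of Cxcl16 was -0.47 ± 0.08 (edgeR adjusted p = 0.0247), where 1.29% of 14221 genes were called. In cluster 1 it was -0.25 ± 0.13 (edgeR adjusted p = 0.324), where 0.348% of genes were called, and the difference between the clusters was not tested. The free RNA estimate of Cxcl16 in tumour barcodes was 43.7 CPM in shPgk1 and 74.2 CPM in shNC libraries, a gap of the same sign as that of the gene. Its part in the fold was not tested.

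Cxcr6 marked the T cells more cleanly than any other receptor here. T cell barcodes averaged 127 ± 39.3 CPM of Cxcr6, which is 102 times the free RNA estimate, and every other gate averaged 4.98 CPM or less. Cd4 barcodes without Foxp3 held 153 CPM, Cd8 barcodes 137 CPM and Foxp3 barcodes 55.5 CPM, and NK barcodes outside the gates 24.7 CPM. The genes whose levels followed Cxcr6 most closely over the 36 sums of 6 gates and 6 libraries were Klrc1 (Pearson r = 0.97), an NK receptor subunit, Gzmc (0.96), a granzyme, and Tnfsf11 (0.96), the ligand RANKL.

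In T cell barcodes Cxcr6 was 115, 197 and 141 CPM in the shPgk1 libraries, against 126, 88.5 and 94.8 CPM in the shNC libraries. The groups overlapped, since shNC replicate 1 lay above shPgk1 replicate 1. The log2 fold was 0.51 ± 0.19 (edgeR adjusted p = 0.464). Without a filter on low counts, a fit that tested more genes, the fold of 0.49 passed (edgeR adjusted p = 0.0130), as did those of Cxcl9 and Cxcl16 given above. Cd8 barcodes made up 59.5% ± 9.12 of the T cell gate in shPgk1 libraries and 47.0% ± 13.9 in shNC libraries (SD, n = 3 each), and within them the fold was 0.50 ± 0.32 (edgeR adjusted p = 0.704). Over all kept barcodes Cxcr6 was 7.94, 6.65 and 4.11 CPM in the shPgk1 libraries and 8.84, 6.22 and 7.16 CPM in the shNC libraries, with overlap and a fold of -0.19 ± 0.24 (edgeR adjusted p = 0.610).

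**Figure D3:**
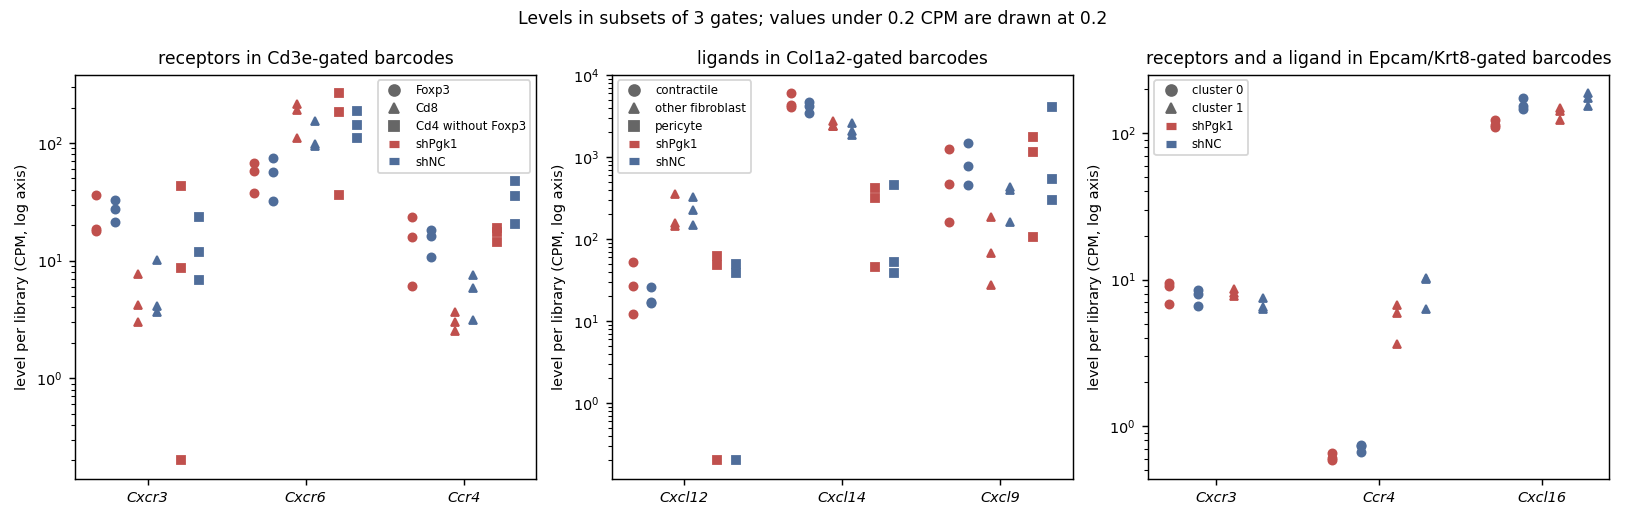
Levels in CPM (log axis) per library in subsets of the T cell, fibroblast and tumour gates; colours mark shPgk1 and shNC, drawn left and right of each other, and symbols mark the subset. Pooled over libraries, Ccr4 stands at 6.91 CPM in cluster 1 of the tumour gate and 0.635 CPM in cluster 0, and Cxcl12 at 24.5 CPM in the contractile fibroblasts and 241 CPM in the others.

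The stromal ligands were restricted to fewer gates. Cxcl12 averaged 76.4 ± 38.5 CPM in fibroblast and 60.7 ± 29.2 CPM in endothelial barcodes (SD over 6 libraries), with overlapping ranges. Tumour, macrophage and T cell barcodes lay at 0.936, 0.924 and 0.909 times the free RNA estimate, so Cxcl12 from these cells was not detectable. Cxcl14 averaged 3723 ± 645 CPM in fibroblast barcodes, with every library at 3028 CPM or more, against at most 198 CPM in any other gate. Macrophage barcodes came second at 171 ± 23.2 CPM, 2.96 times the free RNA estimate. Tumour, T cell and endothelial barcodes stood at 0.705, 0.735 and 0.832 times it.

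The 2 stromal ligands split the fibroblasts in opposite ways. Cxcl12 was 24.5 CPM in contractile fibroblasts and 241 CPM in the other fibroblasts, while Cxcl14 was 4272 CPM in contractile and 2288 CPM in the other fibroblasts. Every library had this order for both genes. Pericyte barcodes held 41.7 CPM of Cxcl12 and 282 CPM of Cxcl14. Cxcl12 followed Sparc, Nid1 and Col15a1, genes of matrix and basement membrane proteins (Pearson r = 0.96 for each, over 36 sums), whereas Cxcl14 followed Spon1 (0.96), Olfml3 (0.96) and Tmem119 (0.95).

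In fibroblast barcodes Cxcl14 was 4923, 3512 and 3386 CPM in the shPgk1 libraries, against 3771, 3717 and 3028 CPM in the shNC libraries. The groups overlapped, and the log2 fold was 0.14 ± 0.16 (edgeR adjusted p = 0.843). Without library shPgk1 1 its sign turned, to -0.07. Cxcl12 in fibroblast barcodes was 48.4, 57.2 and 136 CPM in the shPgk1 libraries and 113, 62.3 and 41.8 CPM in the shNC libraries. Each arm had 1 high library, and the fold was 0.14 ± 0.58 (edgeR adjusted p = 0.969). In endothelial barcodes Cxcl12 was 49.3, 46.6 and 51.9 CPM in the shPgk1 libraries and 78.7, 27.5 and 110 CPM in the shNC libraries, with a fold of -0.62 ± 0.48 (edgeR adjusted p = 0.948). The shNC values straddled the shPgk1 ones.

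Over all kept barcodes, 3 of the 10 genes were called, where 16.4% of 19523 genes were: Cxcr3 was higher, and Cxcl14 and Ccr4 were lower. The groups did not overlap for 3 genes that were lower (Cxcl14, Ccr4 and Cxcl16), a pattern that 25.5% of genes showed, and for 1 that was higher (Cxcr3), which 16.0% of genes showed. Cxcl14 was 213, 213 and 220 CPM in the shPgk1 libraries, against 352, 417 and 433 CPM in the shNC libraries. The groups did not overlap, and Cxcl14 fell with a log2 fold of -0.83 ± 0.10 (edgeR adjusted p = 0.0175). In the same libraries the fibroblast gate, which held 68.1% of all Cxcl14 counts, was the smaller share of barcodes, as given above, and the fold within fibroblast barcodes was 0.14, as given above. The call was lost, with folds between -0.81 and -0.85, without library shNC 2 (edgeR adjusted p = 0.0878), shPgk1 2 (0.0660) or shPgk1 3 (0.0875).

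In tumour barcodes, 1 of the 10 genes was called, where 4.22% of 16007 genes were, and it was again Cxcl14. Every shPgk1 library lay below every shNC library for 4 of the 10 (Cxcl9, Cxcl16, Cxcr6 and Cxcl14), as for 26.3% of genes. Cxcl14 was 27.7, 24.2 and 22.4 CPM in the shPgk1 libraries, against 39.4, 48.6 and 71.6 CPM in the shNC libraries. The groups did not overlap, and the log2 fold was -0.99 ± 0.21 (edgeR adjusted p = 0.0473). These levels lay under the level that free RNA would give, which averaged 34.0 CPM in shPgk1 and 76.6 CPM in shNC libraries. The ratio of level to free RNA was 0.727 on average in shPgk1 and 0.684 in shNC libraries. The free RNA estimate is a share of the Cxcl14 level over all kept barcodes, which was itself lower in the shPgk1 libraries. Its part in the fold was not tested. The call was lost without library shNC 2 (edgeR adjusted p = 0.141), shPgk1 1 (0.0511), shPgk1 2 (0.139) or shPgk1 3 (0.186), with the stricter gate (0.0573) and without the filter on low counts (0.0633).

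**Figure D4:**
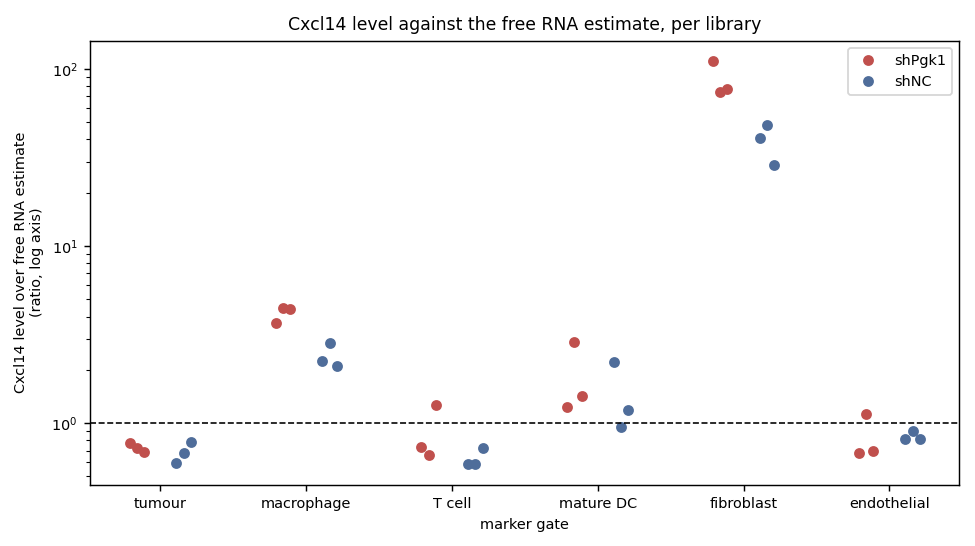
Cxcl14 level divided by the level that free RNA would give (ratio, log axis), 1 point per library, shPgk1 left of shNC in each of 6 marker gates. In the tumour gate the ratio lies between 0.690 and 0.768 in shPgk1 libraries and between 0.597 and 0.780 in shNC libraries, and in the fibroblast gate it averages 87.6 in shPgk1 and 39.1 in shNC libraries. In fibroblast barcodes the level averaged 3940 CPM in shPgk1 and 3505 CPM in shNC libraries, and the free RNA estimate 45.1 and 91.9 CPM. That estimate is a share of the level over all kept barcodes.

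Macrophage barcodes held 129, 169 and 177 CPM of Cxcl14 in the shPgk1 libraries and 168, 185 and 198 CPM in the shNC libraries. The groups overlapped, and the log2 fold was -0.29 ± 0.12 (edgeR adjusted p = 0.301). The ratio to free RNA averaged 4.18 in shPgk1 and 2.40 in shNC libraries, above 1 in both arms. The free RNA estimates themselves averaged 37.7 and 77.8 CPM. The fold differed from that in tumour barcodes by 0.69 ± 0.17 (macrophage minus tumour, edgeR interaction term, adjusted p = 0.0463), where 2.7% of 16535 genes were called and no other of the 10 genes was in that fit. The difference was between 0.52 and 0.88 when any 1 library was left out, and its call was kept in 1 case only, without shPgk1 1. Adjusted p-values without the other libraries ran between 0.0858 and 0.225. With the stricter gate the difference was 0.62 and not called (edgeR adjusted p = 0.116). Without shPgk1 1 the difference of Ccl17, at 1.17, was called too (edgeR adjusted p = 0.000896).

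The Ccr4 ligands were highest in the mature dendritic gate, which for Ccl22 was fixed by the choice of barcodes. Ccl17 averaged 1005 ± 509 CPM in the mature dendritic gate, 381 times the free RNA estimate, and 9.20 ± 3.23 CPM in macrophage barcodes, the next highest. Ccl22, 1 of the 2 genes that define the gate, averaged 957 ± 248 CPM in it and at most 2.77 CPM elsewhere. The gate held 55.2% of all Ccl22 counts but 30.04% of all Ccl17 counts. Barcodes outside the gates or in several held 25.9% of Ccl22 and 38.3% of Ccl17 counts. Of Ccl17 counts, 15.1% lay in the macrophage gate and 14.3% in the tumour gate. Outside the gates, barcodes that passed for the type 2 dendritic gene Cd209a held 169 CPM of Ccl17 and 7.25 CPM of Ccl22, both pooled. By library, Ccl17 in them was 145, 381 and 5.59 CPM in the shPgk1 libraries and 174, 232 and 0 CPM in the shNC libraries. B cell barcodes (Cd79a and Ms4a1) held 93.8 CPM of Ccl17, but 72 of their 80 counts came from library shNC 3, and the level was 10.7 CPM without it. Type 1 dendritic barcodes held 42.1 CPM, and 24.4 CPM without shNC 3. No free RNA estimate was made for these groups. Over the 36 sums Ccl17 followed Timd4 (Pearson r = 0.97), a phosphatidylserine receptor, Ccl22 (0.96) and Cldn1 (0.96), while Ccl22 followed Strip2, Nudt17 (0.97 each) and the tight junction gene Cldn1 (0.96). Since Ccl22 helped to choose the mature dendritic barcodes among these sums, the correlations with Ccl22 partly restate that choice.

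In mature dendritic barcodes, which numbered 25 to 47 per library, Ccl17 was 1624, 1198 and 848 CPM in the shPgk1 libraries, against 363, 1467 and 533 CPM in the shNC libraries. The groups overlapped, with shNC replicate 2 among the shPgk1 values. The log2 fold was 0.54 ± 0.65 (edgeR adjusted p = 0.890). Without library shNC 2 it was 1.42 and was called (edgeR adjusted p = 0.0422). The level of Ccl22 was 1144, 821 and 1015 CPM in the shPgk1 libraries and 703, 1328 and 733 CPM in the shNC libraries. It again overlapped and was again high in shNC replicate 2. Since Ccl22 helped to choose these barcodes, its fold was taken from a gate on Ccr7 alone, with 547 barcodes, where it was 0.26 ± 0.57 (edgeR adjusted p = 0.956). Ccl17 had a fold of 0.47 ± 0.74 there (edgeR adjusted p = 0.928).

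Ccr4 was sparse, with 1779 counts in all. It averaged 7.24 ± 2.39 CPM in T cell and 3.18 ± 1.78 CPM in tumour barcodes (SD over 6 libraries), 12.9 and 5.84 times the free RNA estimate, with overlapping ranges. The mature dendritic gate, at 2.78 CPM on 8 counts, the endothelial gate, at 2.32 CPM on 15 counts, and the macrophage gate, at 2.13 CPM, stood at 5.46, 4.202 and 3.76 times that estimate. The macrophage gate held 20.4% of all Ccr4 counts. In the T cell gate it was 26.9 CPM in Cd4 barcodes without Foxp3, 15.03 CPM in Foxp3 barcodes and 4.42 CPM in Cd8 barcodes. The tumour gate held 42.2% of all Ccr4 counts, and its 2 clusters differed: cluster 1 held 6.91 CPM and cluster 0 held 0.635 CPM. Every library of cluster 1 lay above every library of cluster 0 in the plot of subsets. The gene most like Ccr4 over the 36 sums was Mdm4 (Pearson r = 0.85), a p53 regulator, followed by Dennd1b and Uhrf1bp1l (0.83 each).

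Ccr4 fell over all kept barcodes. It was 2.56, 2.07 and 1.74 CPM in the shPgk1 libraries, against 3.14, 3.61 and 4.91 CPM in the shNC libraries. The groups did not overlap, as for 25.5% of genes in that direction. Here too the makeup of the libraries and the RNA per cell cannot be told apart. The log2 fold was -0.81 ± 0.22 (edgeR adjusted p = 0.0441). The call was lost without library shNC 2 (edgeR adjusted p = 0.116), shNC 3 (0.0952), shPgk1 2 (0.1201) or shPgk1 3 (0.148). In T cell barcodes Ccr4 was 4.95, 5.55 and 5.57 CPM in the shPgk1 libraries and 10.8, 9.41 and 7.15 CPM in the shNC libraries. These did not overlap either, as for 6.43% of genes in that direction, but the fold of -0.80 ± 0.28 did not pass (edgeR adjusted p = 0.371). In tumour barcodes it was 2.44, 2.12 and 1.37 CPM in the shPgk1 libraries and 2.41, 4.86 and 5.90 CPM in the shNC libraries, overlapping through shNC replicate 1. The fold was -1.04 ± 0.33 (edgeR adjusted p = 0.0816). DESeq2 called it (adjusted p = 0.0158), and so did edgeR without library shNC 1 (0.0133) and with clusters in place of gates (0.0404). Cluster 1, where Ccr4 was higher, made up 34.2% ± 1.89 of tumour barcodes in shPgk1 libraries and 46.7% ± 10.4 in shNC libraries (SD, n = 3 each). Within cluster 1 the fold was -0.67 ± 0.25 (edgeR adjusted p = 0.194), and within cluster 0 it was -0.24 ± 0.29 (edgeR adjusted p = 0.716).

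**Figure D5:**
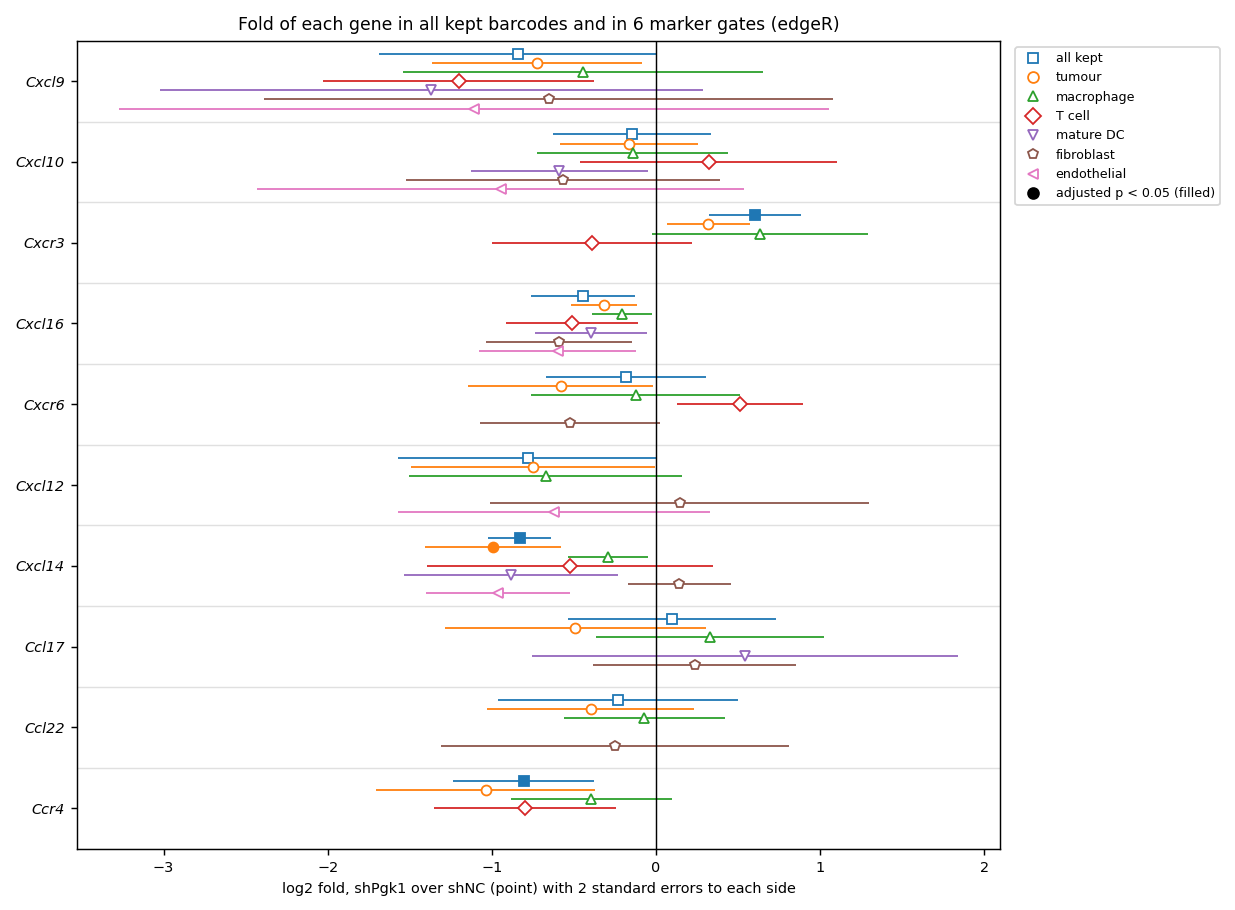
Log2 fold of each gene, shPgk1 over shNC, over all kept barcodes and in 6 marker gates, with bars of 2 standard errors to each side; filled symbols have an edgeR adjusted p under 0.05, and the fold of Ccl22 in the mature dendritic gate is not drawn because Ccl22 is a gate gene. Filled are Cxcr3, at 0.61, Cxcl14, at -0.83, and Ccr4, at -0.81, over all kept barcodes, and Cxcl14 in tumour barcodes, at -0.99.

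In the other gates none of the 10 genes passed in the edgeR fit on the group alone with all 6 libraries. Alternatives called Cxcl9, Cxcl16, Cxcr6 and Ccl17 as given with each gene, and Cxcl14 in endothelial barcodes without the filter on low counts (fold -0.98, edgeR adjusted p = 0.0218). Of macrophage barcodes all 10 genes passed the filter on low counts and 0 were called, where 0.549% of 14938 genes were. At an unadjusted p under 0.05 there were 2 of the 10, against 2282 of the 14938. DESeq2 called 0 of 10, where it called 409 of 25855 genes. In the T cell gate 0 of 7 tested were called, where 0.0907% of 11025 genes were. Of the 7, 4 had an unadjusted p under 0.05, as had 1021 of the 11025. DESeq2 called 1 of 10, Cxcl9, where it called 79 of 21881 genes. In the mature dendritic gate edgeR called 0 of 6, where 0.182% of 4952 genes were called. Of the 6, 3 had an unadjusted p under 0.05, as had 414 of the 4952. DESeq2 called 0 of 10, where it called 14 of 16777 genes. In the fibroblast gate edgeR called 0 of 8, where 0.00819% of 12213 genes were called. Of the 8, 1 had an unadjusted p under 0.05, as had 1193 of the 12213. DESeq2 called 0 of 10, where it called 67 of 22938 genes. In the endothelial gate edgeR called 0 of 5, where 0.0119% of 8406 genes were called. Of the 5, 2 had an unadjusted p under 0.05, as had 485 of the 8406. DESeq2 called 0 of 10, where it called 6 of 19868 genes. The genes that were not tested in a gate had too few counts there.

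Other genes of the same axes were read from a list of 15, of which 14 were among the gene names. Over all kept barcodes 1 of the 14 fell and 0 rose, where 16.4% of all genes were called, and the median log2 fold of the list was -0.47, against -0.05 over all genes tested. The gene that fell was Cxcr4, the Cxcl12 receptor, with 30.8, 21.4 and 22.8 CPM in the shPgk1 libraries and 44.8, 44.6 and 39.8 CPM in the shNC libraries. The groups did not overlap, as for 25.5% of genes in that direction, and the log2 fold was -0.71 ± 0.14 (edgeR adjusted p = 0.0236). Tumour barcodes, low in Cxcr4 as given below, made up 39.6% of kept barcodes in shPgk1 and 26.0% in shNC libraries. For this fold and the list median, makeup of the libraries and RNA per cell cannot be told apart. In tumour barcodes Cxcr4 was also the 1 gene called of 10 tested, where 4.22% of all genes were, with a fold of -0.92 ± 0.20 (edgeR adjusted p = 0.0451). Its level there, at 3.37 CPM in shPgk1 and 6.81 CPM in shNC libraries, was 0.833 and 0.834 times the free RNA estimate. In macrophage barcodes Cxcr4 was 67.6 ± 2.30 CPM in shPgk1 and 77.4 ± 0.806 CPM in shNC libraries (SD, n = 3 each), with a fold of -0.27 ± 0.08 (edgeR adjusted p = 0.182).

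Of the 21 interferon-gamma response genes, which bear on Cxcl9 and Cxcl10, 1 fell and 0 rose over all kept barcodes, where 16.4% of all genes were called, with a median log2 fold of -0.10 against -0.05 over all genes. That gene was Ifngr1, which encodes a chain of the interferon-gamma receptor, at 39.9, 36.7 and 31.2 CPM in the shPgk1 libraries and 51.0, 49.0 and 47.0 CPM in the shNC libraries. The groups did not overlap, as for 25.5% of genes in that direction, and the log2 fold was -0.38 ± 0.10 (edgeR adjusted p = 0.0387). Ifngr1 averaged 21.9 and 26.3 CPM in tumour barcodes of shPgk1 and shNC libraries, and 186 and 184 CPM in T cell barcodes. Makeup of the libraries and RNA per cell cannot be told apart here either. In each of the 6 gates edgeR called 0 of the list, where between 0.00819% and 4.22% of all genes were called. An unadjusted p under 0.05 was found for 6 of 19 list genes in mature dendritic barcodes, against 414 of 4952 genes. It was found for 1 of 21 in tumour (5203 of 16007 genes) and 0 of 21 in macrophage barcodes (2282 of 14938). The T cell gate had 2 of 21 (1021 of 11025), the fibroblast gate 1 of 21 (1193 of 12213) and the endothelial gate 3 of 20 (485 of 8406). The median fold of the list was -0.15 in tumour, -0.11 in macrophage, -0.10 in T cell, -0.47 in mature dendritic, -0.13 in fibroblast and -0.34 in endothelial barcodes, where all genes had a median between -0.03 and 0.01.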

How the data were processed

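Single-cell RNA was measured on a droplet platform in 3 shPgk1 and 3 shNC libraries, grouped by their titles. The authors deposited unnormalized UMI counts, with a matrix for each library. The file headers name PISA 0.12, and the submitters' processing notes Seurat 4 and the human build GRCh38, although the gene names are mouse names. The aligner, annotation and true build were not given in the sources used here. Barcodes under 500 UMIs or 300 genes, or over 20% mitochondrial UMIs, numbered 643 and were dropped, and 801 with a Scrublet score above 0.25 (expected rate 0.06) were removed as doublets, in scanpy 1.11.5 under Python 3.11.15. The threshold Scrublet set by itself marked between 0 and 125 per library. Barcode names are serial labels, and 11389 of 26570 occur in 2 or more libraries, but 0 profiles were identical between libraries.

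A gate was passed when a barcode's marker UMIs had a Poisson tail under 0.005 given a free RNA share of 0.3 of the library's mean; mature dendritic barcodes also needed a UMI each of Ccr7 and Ccl22. The free RNA level was estimated per gate and library from markers of the other lineages, with medians between 16.6% and 21.5% of the level over all kept barcodes. The gates left 558 barcodes in several gates and 14952 in none. The fibroblast gate includes 104 pericyte barcodes.

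Counts were summed per library and gate and tested with edgeR 4.0.16 in R 4.3.3 (TMM scaling, filterByExpr, robust quasi-likelihood, group only, Benjamini-Hochberg over all genes tested, threshold 0.05), and with DESeq2 1.42.0 as an alternative. The steps were tested on simulated data. Levels are means of library CPM; subsets used the gates' tail rule on their own markers and give counts pooled over libraries. Correlations used log2(CPM + 1) over 10260 genes, and subsets, clusters (leidenalg 0.10.2, resolution 0.5) and lineage levels carry no test. Named are all 10 genes, plus list genes past the threshold and the 3 genes most like each member. The members and lists were chosen with earlier results of these data known. CPM is relative to the total of the gate, and splitting by expression makes lineage levels descriptions. The summed level of the interferon-gamma response list is not reported here.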

Additional observations from a re-analysis of the deposited data

Results flagged for a closer look

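The fold of Cxcl14 differed between macrophage and tumour barcodes by 0.69 on the log2 scale (edgeR interaction term, adjusted p = 0.0463), the 1 of the 10 genes for which this test passed with all 6 libraries. It was 0.62 and not called with the stricter gate (edgeR adjusted p = 0.116), and when 1 library was left out it was called in 1 of 6 fits, without shPgk1 1, where Ccl17 was called as well (edgeR adjusted p = 0.000896). The fold was -0.29 in macrophage and -0.99 in tumour barcodes. In tumour barcodes the level averaged 0.727 times the free RNA estimate in shPgk1 and 0.684 times in shNC libraries, and in macrophage barcodes 4.18 times in shPgk1 and 2.40 times in shNC libraries. The part of free RNA in this difference was not tested.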

How the results depend on the processing

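The 66 results for single genes were their folds and their macrophage minus tumour differences. Of 822 alternatives to these, 744 kept their direction and side of the threshold, 27 lost and 20 gained a call, and 31 changed sign. The counts of called genes, at a main value of 3197 over all barcodes, 675 in tumour, 82 in macrophage, 10 in T cell, 9 in mature dendritic, 1 in fibroblast and 1 in endothelial barcodes, moved most, and the cause was not tested. With DESeq2 they were 4830, 2487, 409, 79, 14, 67 and 6 in that order. Without the filter on low counts tumour gave 2146, macrophage 394, T cell 347, mature dendritic 54, fibroblast 395 and endothelial 80. With a replicate block tumour gave 380, macrophage 21, T cell 48, fibroblast 98 and endothelial 18. Replicate numbers did not pair the libraries: the correlations of same-numbered deviations lay between -0.14 and 0.11. Under that block Cxcl16 and Cxcl9 over all barcodes, Cxcl9 in T cell and mature dendritic barcodes and Cxcl16 in fibroblast barcodes gained a call, and Ccr4 over all and Cxcl14 in tumour barcodes lost theirs. Clusters in place of gates gave 2283 in tumour and 5 in endothelial barcodes, the stricter gate 26 in mature dendritic and keeping doublets 3 in fibroblast barcodes. Subsets chosen after seeing the data gave 184 and 50 in tumour clusters 0 and 1, 44 in Cd8 T cells, 4 in contractile and 0 in other fibroblasts (edgeR). Leaving out 1 library gave 3 to 5151 over all, 4 to 2999 in tumour, 4 to 219 in macrophage, 6 to 64 in T cell, 1 to 14 in mature dendritic, 0 to 12 in fibroblast and 0 to 6 in endothelial barcodes, and 96 to 897 for the macrophage minus tumour difference, with a main count of 446. The calls over all barcodes fell to 3, 10 and 3 without shNC 2, shPgk1 2 and shPgk1 3. The macrophage share was 3.08 points lower in shPgk1 libraries (difference -3.08) and 0.0139 points higher with the stricter gate. With clusters in place of gates it was 26.5% in shPgk1 and 36.2% in shNC libraries (difference -9.70, exact permutation p = 0.1, adjusted p = 0.2).

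Signs turned for uncalled folds as follows. With clusters in place of gates Ccl22 in macrophage barcodes was 0.27, Cxcr6 in macrophage 0.065, Cxcl10 in T cell -0.23 and Cxcr6 in fibroblast barcodes 0.14, and in other fibroblasts Cxcl12 was -0.11. Leaving out 1 library gave, over all barcodes, Ccl17 -0.11 to 0.61, Ccl22 -0.59 to 0.15, Cxcl10 -0.33 to 0.081 and Cxcr6 -0.34 to 0.042. In tumour barcodes it gave Ccl17 -0.73 to 0.12 and Cxcl10 -0.34 to 0.037. In macrophage barcodes it gave Ccl22 -0.29 to 0.15, Cxcl10 -0.32 to 0.12, Cxcl9 -1.02 to 0.031 and Cxcr6 -0.34 to 0.12. It gave Cxcl10 in T cell -0.069 to 0.59, Ccl22 in mature dendritic -0.13 to 0.43, and in fibroblast barcodes Ccl17 -0.022 to 0.44, Ccl22 -0.79 to 0.12, Cxcl12 -0.46 to 0.62 and Cxcl14 -0.065 to 0.25. For the macrophage minus tumour difference it gave Cxcl10 -0.13 to 0.12 and Cxcl12 -0.012 to 0.22. The cause was not tested. Cxcr3 and Ccr4 rest on 3039 and 1779 counts, and the mature dendritic gate on 25 to 47 barcodes per library, which limits what these can show.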
